A study of Homo sapiens with 9 samples.

Results

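The genes described here are 33 genes of sterol and fatty acid synthesis and of its control, of 26485 genes in the count table. They were chosen by name from the textbook pathways, with no measured value in the rule but with earlier results of these data known: 8 genes of the mevalonate steps, 11 of squalene formation and the steps after it, 6 of SREBP control and sterol transport, and 8 of fatty acid synthesis and handling. Poly(A) RNA of HEK293 cells, a human embryonic kidney line, was sequenced in 9 libraries. The line was compared as wild type (WT, 3 libraries), with the ubiquitin ligase gene UBE3D knocked out by CRISPR/Cas9 (KO, 3 libraries) and as KO cells in which UBE3D was added back (addback, 3 libraries). All were grown in DMEM with fetal bovine serum, which supplies cholesterol and fatty acids, and no sterol treatment or depletion is named. The labels mark every sample as pooled. They name neither the clone of the KO and addback cells, the vector of the addback, nor separate cultures, so p-values measure only the spread between libraries, which may be technical.

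Cells make cholesterol from acetyl-CoA through mevalonate and squalene, and make fatty acids from the same acetyl-CoA pool. The transcription factors SREBP-2 and SREBP-1, encoded by SREBF2 and SREBF1, drive most genes of both pathways. SCAP carries them from the endoplasmic reticulum to the Golgi for cleavage when sterols are scarce, and the INSIG proteins hold SCAP back when sterols are plentiful. INSIG1 is itself an SREBP target, so its RNA is commonly used as a readout of SREBP activity. At promoters SREBP binds sterol regulatory elements or E-boxes together with NF-Y, which binds CCAAT boxes, or SP1, which binds GC boxes.

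RefSeq promoter windows (GRCh38.p14, 250 bases before to 50 after the start) were matched for 28 of the 33 genes, and ACAT2, FDFT1, SQLE, FASN and FABP5 had no entry. The 6 promoters below are shown because they hold at least 3 CCAAT matches before the start, or the only SRE-like or E-box match. The MVK window, with 5 CCAAT matches before the start, and the EBP window, with 3, also met this. They are not printed, because their stretches hold more than 30 bases of coding-gene exon, beginning at the first base. Each of the 6 genes shown fell in KO against WT, as did 23 of all 28 genes with a window. CCAAT was found in 15 of these 23 windows and in 2 of the other 5. Capitals mark CCAAT on either strand (written ATTGG on the other), TCACNCCAC (an SRE-like string) or TCACGTGA (a palindromic E-box). Each is written on the strand of its gene, and at most 30 bases of an exon of a coding gene were kept in a piece. The FDPS window holds a further CCAAT match at -51, which lies past its printed piece.
MVD, chr16:88663160-88663262, minus strand: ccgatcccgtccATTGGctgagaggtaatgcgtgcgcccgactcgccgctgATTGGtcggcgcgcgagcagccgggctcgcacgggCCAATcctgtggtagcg
FDPS, chr1:155308678-155308767, plus strand: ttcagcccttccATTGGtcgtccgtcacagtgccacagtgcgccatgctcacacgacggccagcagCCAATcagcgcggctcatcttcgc
MSMO1, chr4:165327472-165327651, plus strand: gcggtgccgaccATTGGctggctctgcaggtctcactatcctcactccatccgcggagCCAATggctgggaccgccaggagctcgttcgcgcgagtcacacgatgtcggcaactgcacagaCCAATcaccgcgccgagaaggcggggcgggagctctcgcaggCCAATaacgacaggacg
NSDHL, chrX:152830823-152830995, plus strand: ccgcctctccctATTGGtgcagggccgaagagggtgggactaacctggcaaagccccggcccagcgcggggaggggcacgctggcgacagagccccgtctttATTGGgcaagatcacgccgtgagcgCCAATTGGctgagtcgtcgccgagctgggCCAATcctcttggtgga
INSIG1, chr7:155297696-155297795, plus strand: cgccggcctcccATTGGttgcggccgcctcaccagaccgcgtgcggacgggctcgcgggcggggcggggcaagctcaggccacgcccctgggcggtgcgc
INSIG1, chr7:155297812-155297839, plus strand: ccgggcaggcTCACGTGAtgcgggcccc
SREBF2, chr22:41832960-41833015, plus strand: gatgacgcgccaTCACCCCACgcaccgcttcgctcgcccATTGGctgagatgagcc

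The NSDHL stretch held 5 CCAAT matches, of which a pair overlapped in the string CCAATTGG, and the MSMO1 stretch held 4. CCAAT was found on either strand in 17 of the 28 windows, or 60.7%, against 34.6% of all 34943 windows of the same length. Each of the 28 genes gave 1 window, while all windows were not limited to 1 a gene or to genes expressed here. The 2 sets are therefore not alike. At least 2 CCAAT matches before the start were found in 11 of the 28 windows, against 9.54% of all windows. By role, CCAAT was found in 4 of 7 mevalonate genes, 8 of 9 post-squalene genes, 3 of 6 genes of SREBP control and 2 of 6 fatty acid genes. The post-squalene window without it was that of CYP51A1. GGGCGG, the core of the GC box, was found on either strand in 25 windows, or 89.3%, against 44.9% of all windows. TCACNCCAC was found only in the SREBF2 window, with its first base at -133 from the start, against 1.12% of all windows, and it did not overlap the CCAAT match at -106. TCACGTGA was found only in the INSIG1 window, with its first base at -56, against 0.979% of all windows. This match lies before the RefSeq start used here but past the GENCODE v29 start of INSIG1 at base 155297776. All 28 bases of its printed piece lie in an exon of a coding gene. These counts describe letters in the windows and show no binding, and factor binding was not measured.

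Values below are scaled CPM, the usual count rate of a library after scaling on genes with little background, and fold changes are log2 ± standard error from 1 edgeR fit over all 9 libraries, called at a Benjamini-Hochberg adjusted p under 0.05. The libraries held 23088295 to 37508780 counts. WT and addback libraries carried counts over genes of other tissues that KO libraries lacked: 95.7 to 96.3% of 575 tissue-restricted genes had at least 1 count in every WT and addback library, against 14.4 to 17.4% in KO libraries. This background was estimated at 2.79 to 14.5% of the counts of WT and addback libraries and 0% of KO libraries, and it was lowest in the libraries numbered 1. Its share of the counts passed 10% in at least 1 WT or addback library for 8 of the 33 genes, and is given with each of them below. Over the libraries together it was under 10% of the mean level in 32 of the 33 genes, and SREBF1, at 11.8%, was the exception. All 33 genes passed the filter on low counts. UBE3D itself was at 19.5, 21.4 and 26.6 scaled CPM in WT, 13.2, 15.8 and 14.4 in KO and 3348, 3293 and 2744 in addback libraries, so that its RNA was still present in KO and at 140.1 times the WT level in addback. For UBE3D KO against WT gave -0.62 ± 0.13 (adjusted p = 0.004068) and addback against WT 7.13 ± 0.14 (adjusted p = 7.029e-08). Background was 5.31 to 19.9% of the UBE3D counts in WT, and its KO against WT fold was -0.34 with 2 times the background subtracted and -0.28, not called (adjusted p = 0.142), with TMM factors over all genes. Summed scaled CPM of 10 HEK293-like marker genes ran from 2599 to 2706 in WT, 2995 to 3309 in KO and 2570 to 2768 in addback libraries. Of the 6 hepatocyte markers the sum ran from 19.95 to 103 in WT and from 15.9 to 68.7 in addback, and from 0.311 to 1.30 in KO. For the 6 adipocyte markers it was 17.8 to 37.5 in WT, 14.1 to 33 in addback and 7.69 to 8.81 in KO, with ADIPOQ at 0 in all KO libraries, and for the 5 adrenal cortex markers 6.73 to 30.8, 7.42 to 30.8 and 0.474 to 0.962, with MC2R at 0 in all KO libraries. The part of these marker counts in the results was not tested. Because the libraries are bulk RNA, fewer expressing cells and less RNA per cell cannot be told apart.

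In KO cells 27 of the 33 genes were lower than in WT, 2 were higher and 4 were not called. Among the low-background genes 26.3% were called lower and 23.3% higher in the same comparison, and among all tested genes 52.6% and 9.43%. The median log2 fold of the 33 genes was -0.50, against -0.02 for the 7526 low-background genes and -0.47 for all 21994 tested genes, whose median carries the background. By role, 6 of 8 mevalonate genes, 10 of 11 post-squalene genes, 6 of 6 genes of SREBP control and 5 of 8 fatty acid genes were lower, with medians of -0.66, -0.67, -0.44 and -0.34. The genes called higher were GGPS1 and FABP5, and those not called were PMVK, SC5D, ACACA and ACLY. All 3 KO libraries lay below all 3 WT libraries in 28 genes and above them in 2, against 31.5% and 26.9% of low-background genes and 58.5% and 12.1% of all tested genes. The count depends on the scaling: with TMM factors over all genes, which move the median of the low-background genes to 0.32, 14 genes were lower and 5 higher. The 13 that lost the call of lower were MVK, FDPS, CYP51A1, EBP, DHCR7, INSIG2, SREBF1, SREBF2, SCAP, FASN, FADS1, FADS2 and ELOVL6. With upper quartile factors 23 genes were lower and 2 higher, and with DESeq2 size factors 20 and 4. Shares of all genes called were not counted under these other scalings, here or in the comparisons below. The shares given apply only to the fit used here. Under the TMM factors over all genes 8 folds changed sign, those of PMVK, EBP, SC5D, INSIG2, SCAP, FASN, ACACA and ACLY. Of these PMVK, SC5D and ACACA were then called higher, beside GGPS1 and FABP5. With DESeq2 size factors PMVK, GGPS1, ACACA and FABP5 were called higher. With 1 WT library, the one of lowest background, against the 3 KO libraries the median fold of the 33 genes was -0.60. That of low-background genes was 0.00. A single WT library has no spread of its own, so no calls are given.

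**Figure D1:**
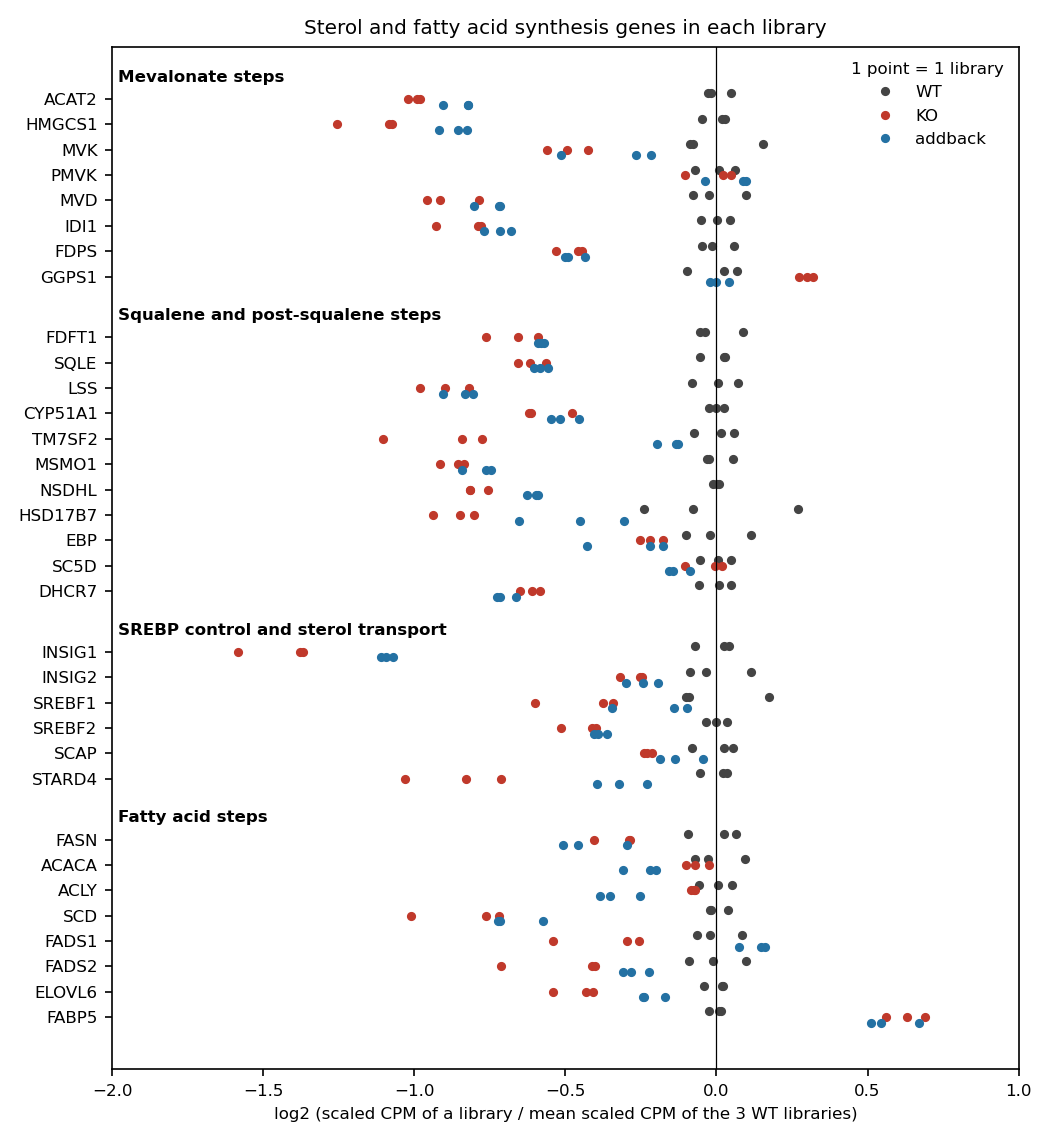
Level of each of the 33 genes in each library, as the log2 ratio of its scaled CPM to the mean of the 3 WT libraries (x axis), by role (y axis). WT is grey, KO red and addback blue, and 1 point is 1 library. INSIG1 lies furthest to the left, and FABP5, with KO and addback libraries to the right of WT, is opposite to it.

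With UBE3D added back, 10 of the 33 genes were higher than in KO, 3 were lower and 20 were not called, against 18.4% higher and 20.0% lower among low-background genes and 49.2% and 7.64% among all tested genes. The median fold of the 33 genes in addback against KO was 0.09, against 0.00 for low-background genes. The genes called higher were ACAT2, HMGCS1, TM7SF2, NSDHL, HSD17B7, INSIG1, STARD4, FADS1, FADS2 and ELOVL6, and those called lower were GGPS1, ACACA and ACLY. These folds were small, and most directions turned with the scaling: with TMM factors over all genes 20 of the 33 folds changed sign, and 8 genes were called lower and 1 higher. Upper quartile factors gave 5 lower and 4 higher, and DESeq2 with its own size factors 13 lower and 2 higher. TM7SF2, HSD17B7, INSIG1, STARD4 and FADS1 were above KO under each of these scalings, and among them TM7SF2 alone kept its call under all 3. With 1 addback library, the one of lowest background, the median fold of the 33 genes against KO was 0.10.

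Against WT, addback cells had 20 of the 33 genes lower, 1 higher (FABP5) and 12 not called, against 12.5% lower and 10.2% higher among low-background genes and 4.89% and 4.36% among all tested genes. The median fold of the 33 genes in addback against WT was -0.39, against -0.01 for low-background genes. All 3 addback libraries lay below all 3 WT libraries in 27 genes and above them in 1, against 23.8% and 20.1% of low-background genes and 10.6% and 10.3% of all tested genes. By role 5 of 8 mevalonate genes, 7 of 11 post-squalene genes, 3 of 6 genes of SREBP control and 5 of 8 fatty acid genes were lower, with medians of -0.60, -0.58, -0.28 and -0.26. With TMM factors over all genes 12 of the 33 genes were lower, and FDPS, FDFT1, CYP51A1, SREBF2, STARD4, FASN, ACACA, ACLY and ELOVL6 lost the call. With upper quartile factors or DESeq2 size factors 22 were lower. In this comparison the sign of 1 fold turned with DESeq2 size factors, that of GGPS1, and of 0 with the other 2 scalings. Between the WT and addback libraries of lowest background, 1 of each, the median fold of the 33 genes was -0.41. Same-numbered WT and addback libraries deviated together, and with the replicate number as a block 24 genes were lower. The 3 comparisons share libraries pairwise, so their folds are given side by side and not as separate evidence.

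**Figure D2:**
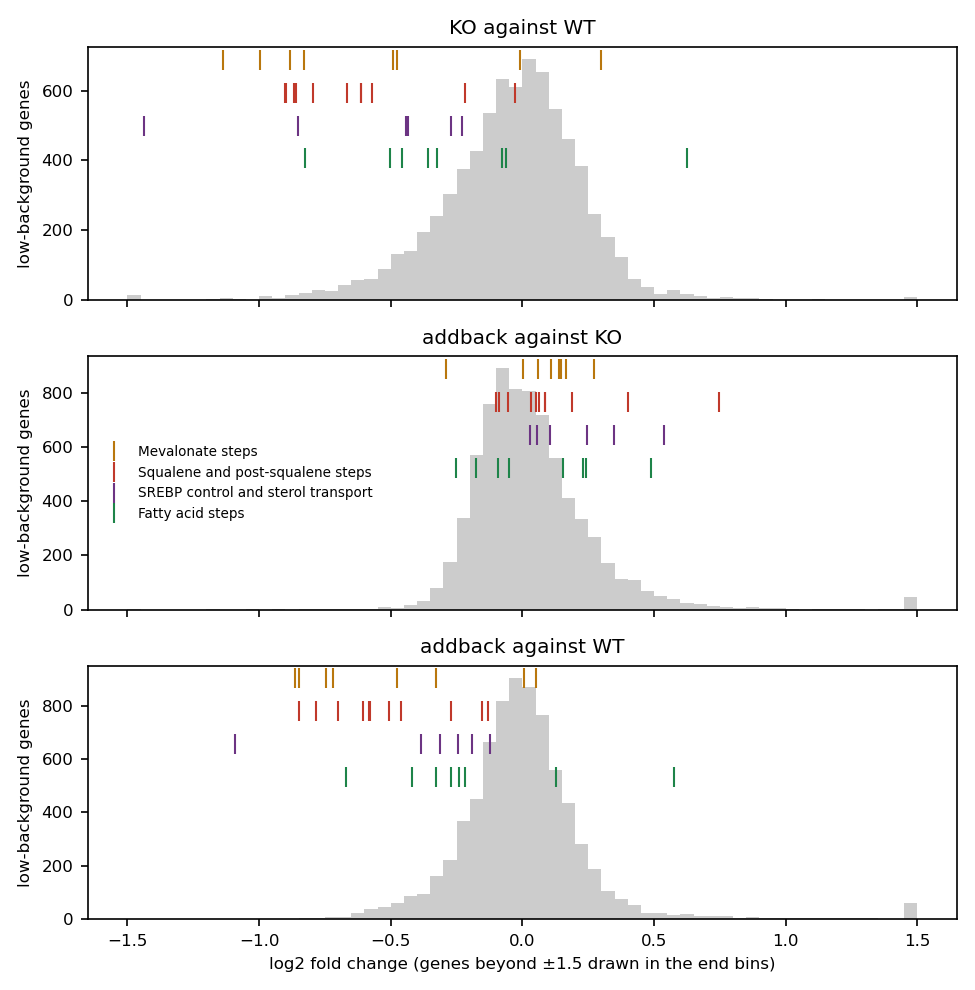
Log2 fold changes of the 33 genes (coloured ticks, by role) over the histogram of the 7526 low-background genes (grey bars, number of genes on the y axis) in each comparison. The ticks lie mostly left of the bulk in KO against WT (median -0.50) and addback against WT (median -0.39) and within it in addback against KO (median 0.09).

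The mevalonate genes were led by HMGCS1 and ACAT2. HMGCS1, which makes HMG-CoA from acetoacetyl-CoA (chromosome 5, 43289395-43313512, minus strand), was at 659, 627 and 656 scaled CPM in the WT libraries, 305, 271 and 307 in KO and 365, 343 and 358 in addback. The 3 groups did not overlap, with KO lowest and addback between KO and WT. Its fold was -1.14 ± 0.05 (adjusted p = 1.038e-05) in KO against WT, 0.27 ± 0.05 (adjusted p = 0.003192) in addback against KO and -0.87 ± 0.05 (adjusted p = 2.798e-05) in addback against WT. The small addback rise was not kept under TMM factors over all genes, where its fold was -0.03. ACAT2, the cytosolic thiolase that makes acetoacetyl-CoA for the pathway (chromosome 6, 159760328-159779055, plus strand), was at 229, 219 and 218 in WT, 113, 109 and 112 in KO and 126, 126 and 119 in addback libraries. KO held 50.1% and addback 55.5% of the WT mean, with folds of -0.997 ± 0.04 (adjusted p = 6.922e-06) in KO and -0.85 ± 0.04 (adjusted p = 4.052e-06) in addback against WT. In the table's exon models 23.8% of the ACAT2 exon bases overlap TCP1 on the opposite strand, and the strand setting of the counting is not given in the sources used here.

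MVD, which decarboxylates mevalonate diphosphate, and IDI1, which isomerises the resulting isopentenyl diphosphate, followed. MVD was at 77.9, 71.4 and 68.9 scaled CPM in WT and 42.2, 37.5 and 38.6 in KO, and 44.3, 44.1 and 41.7 in addback libraries, with the addback libraries overlapping KO and lying below WT. Its fold against WT was -0.88 ± 0.06 (adjusted p = 8.163e-05) in KO and -0.75 ± 0.06 (adjusted p = 0.0001443) in addback, and background was 1.58 to 9.13% of its counts in WT and 2.61 to 11.9% in addback. IDI1 was at 195, 183 and 189.7 in WT, 109, 99.6 and 110.3 in KO and 115, 111 and 118 in addback libraries. All addback libraries of IDI1 lay above all KO libraries, yet its fold of 0.11 ± 0.05 (adjusted p = 0.07822) in addback against KO was not called, while KO against WT gave -0.83 ± 0.05 (adjusted p = 2.939e-05). FDPS, which makes farnesyl diphosphate, was at 249, 237 and 231 in WT, 174, 165 and 175 in KO and 177, 169 and 170.0 in addback. The 2 lower groups overlapped, with folds against WT of -0.48 ± 0.04 (adjusted p = 0.0001311) in KO and -0.47 ± 0.04 (adjusted p = 0.0001208) in addback, and of -0.15 and -0.44, neither called, with TMM factors over all genes. FDPS has 8 pseudogenes named after it in GENCODE v29, so reads of near-identical copies may have been split.

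The other 3 mevalonate genes did not follow this pattern in full. GGPS1, which turns farnesyl diphosphate into geranylgeranyl diphosphate and so leads away from sterols, was at 57.5, 51.3 and 55.9 scaled CPM in WT, 66.3, 68.6 and 67.5 in KO and 56.5, 54.9 and 54.1 in addback libraries. KO libraries were highest, and WT and addback overlapped. Its fold was 0.30 ± 0.05 (adjusted p = 0.001611) in KO against WT, -0.29 ± 0.05 (adjusted p = 0.002339) in addback against KO and 0.01 ± 0.05 (adjusted p = 0.9999) in addback against WT. PMVK, the phosphomevalonate kinase, was at 19.7, 20.8 and 21.6 in WT, 21.4, 19.3 and 21.0 in KO and 20.1, 22.1 and 22 in addback libraries, and all groups overlapped. Its KO against WT fold of -0.01 ± 0.09 (adjusted p = 0.9285) was not called, and its sign turned with the scaling. With TMM factors over all genes PMVK was called higher in KO, at 0.33 (adjusted p = 0.01136). Background was at most 11.7% of the PMVK counts in WT. MVK, the mevalonate kinase, was at 29.8, 35.2 and 30.01 in WT and 21.5, 22.5 and 23.6 in KO, a fold of -0.49 ± 0.10 (adjusted p = 0.003476). Background was 4.02 to 20.4% of the MVK counts in WT libraries, and with 2 times the estimated background subtracted its fold was -0.29 and not called. Addback MVK, at 22.2, 26.3 and 27.2, was below WT by -0.33 without a call (adjusted p = 0.09118) and was called with the replicate block (adjusted p = 0.04079).

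At the branch into sterols, FDFT1, the squalene synthase, was at 236, 217 and 214 scaled CPM in WT, 148, 131 and 141 in KO and 149.8, 148 and 149 in addback libraries. SQLE, the squalene epoxidase and a rate-limiting enzyme of the later pathway, was at 166, 157 and 166 in WT, 110.3, 103 and 106 in KO and 107, 111 and 109 in addback. In both genes KO and addback overlapped and lay below WT. FDFT1 gave -0.67 ± 0.05 (adjusted p = 0.0001114) and SQLE -0.61 ± 0.04 (adjusted p = 3.256e-05) in KO against WT, and both gave -0.58 in addback against WT (adjusted p = 0.0001889 and 3.263e-05). LSS, which closes the squalene epoxide into lanosterol, was at 234, 224 and 211 in WT, 126, 113 and 119 in KO and 127, 125 and 119 in addback libraries. Its fold was -0.90 ± 0.05 (adjusted p = 3.301e-05) in KO and -0.85 ± 0.05 (adjusted p = 3.271e-05) in addback against WT, and 0.05 between addback and KO without a call (adjusted p = 0.4427).

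Of the enzymes that turn lanosterol into cholesterol, MSMO1 and NSDHL, which act together in removing methyl groups, were both lower in KO. MSMO1 was at 111, 105 and 104 scaled CPM in WT, 59.9, 56.6 and 59.0 in KO and 63.7, 59.6 and 63.0 in addback libraries. NSDHL was at 85.7, 84.9 and 86.0 in WT, 48.6, 48.6 and 50.6 in KO and 56.5, 56.8 and 55.4 in addback, with no overlap of any groups. KO against WT gave -0.87 ± 0.04 (adjusted p = 1.456e-05) for MSMO1 and -0.79 ± 0.03 (adjusted p = 9.237e-06) for NSDHL. The addback against KO fold of NSDHL was 0.19 ± 0.03 (adjusted p = 0.002758), and it was -0.11 under TMM factors over all genes. CYP51A1, the lanosterol demethylase, was at 157, 154 and 152 in WT, 101, 111 and 100.3 in KO and 113, 108 and 106 in addback libraries, or 67.4% of the WT mean in KO (-0.57 ± 0.05, adjusted p = 0.0001269) and 70.4% in addback (-0.51 ± 0.05, adjusted p = 0.0002045). DHCR7, which makes the last reduction to cholesterol, was at 118, 115 and 109.7 in WT, 74.9, 76.2 and 72.8 in KO and 72.0, 69.4 and 69.1 in addback libraries. Addback libraries of DHCR7 were the lowest of all, with folds against WT of -0.61 ± 0.04 (adjusted p = 3.956e-05) in KO and -0.70 ± 0.04 (adjusted p = 1.651e-05) in addback, and the addback against KO difference of -0.09 was not called (adjusted p = 0.07984).

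TM7SF2, a sterol reductase, had the largest addback rise of the 33 genes. It was at 50.1, 51.5 and 47.0 scaled CPM in WT, 28.9, 23.1 and 27.6 in KO and 43.2, 45.1 and 45.3 in addback libraries, so KO was lowest and addback lay just below WT without overlap. Its fold was -0.90 ± 0.08 (adjusted p = 0.0002269) in KO against WT, 0.75 ± 0.08 (adjusted p = 0.001237) in addback against KO and -0.15 ± 0.08 (adjusted p = 0.4063) in addback against WT, the last not called. Background made up 2.22 to 12.1% of TM7SF2 counts in WT, 2.42 to 9.98% in addback and 0% in KO libraries, and its fold in addback against KO was 0.73 with background subtracted and 0.70 with 2 times the estimate subtracted. HSD17B7, which reduces the sterol ketone, was at 25.9, 29 and 36.9 in WT, 17.5, 16.0 and 17.0 in KO and 19.5, 22.4 and 24.8 in addback libraries. Its WT libraries spread widely, and background was 3.81 to 13.7% of their counts. KO against WT gave -0.86 ± 0.14 (adjusted p = 0.001621). Its addback against KO fold of 0.40 ± 0.14 (adjusted p = 0.0362) lost the call with background subtracted (0.29) and without KO libraries 1, 2 or 3 or addback libraries 2 or 3 in turn. In addback against WT HSD17B7 was not called (adjusted p = 0.08133) but was with the replicate block (adjusted p = 0.02873). HSD17B7 has 2 named pseudogenes.

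EBP, the sterol isomerase, and SC5D, a sterol desaturase, changed least of the post-squalene genes in KO against WT. EBP was at 95.4, 87.0 and 82.2 scaled CPM in WT, 78.1, 75.7 and 74.0 in KO and 78.1, 75.7 and 65.5 in addback libraries. Its KO against WT fold of -0.22 ± 0.07 (adjusted p = 0.02971) lost the call without any 1 of the 3 KO libraries or WT libraries 1 or 2, where it ran from -0.14 to -0.24, and it was 0.11 under TMM factors over all genes. In addback against WT EBP gave -0.27 (adjusted p = 0.05561), which the replicate block called (adjusted p = 0.005191). SC5D was at 94.8, 88.2 and 92.0 in WT, 85.2, 92.9 and 91.3 in KO and 86.2, 82.1 and 83.1 in addback libraries. KO and WT overlapped, and -0.03 ± 0.04 (adjusted p = 0.5794) was not called. With TMM factors over all genes SC5D was called higher in KO, at 0.30 (adjusted p = 0.04867).

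**Figure D3:**
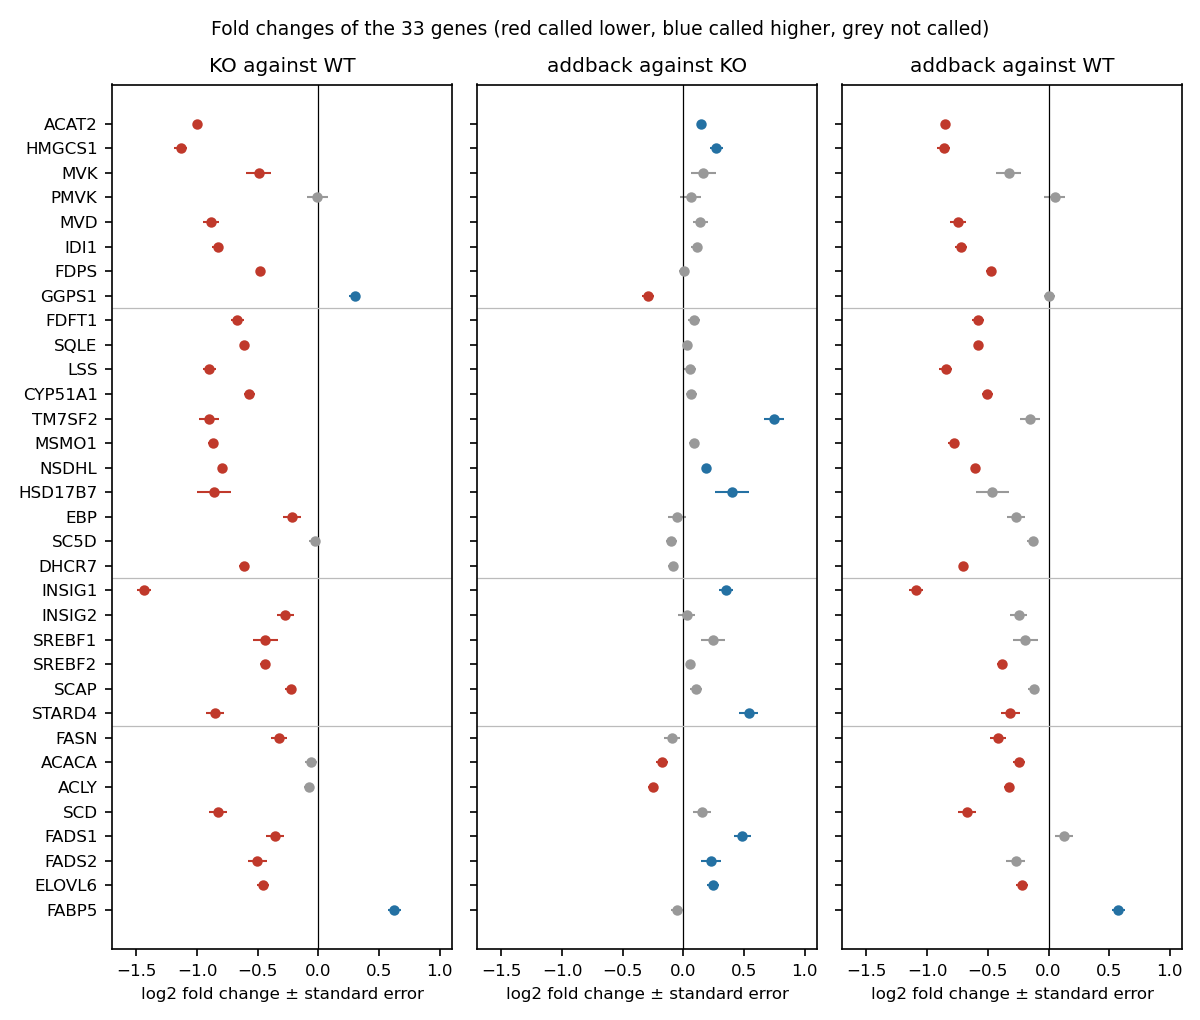
Log2 fold change ± standard error (x axis) of each of the 33 genes (y axis, in pathway order) in the 3 comparisons; red was called lower, blue higher and grey not called at an adjusted p under 0.05. In KO against WT 27 points are red, in addback against KO 10 are blue, and in addback against WT 20 are red.

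INSIG1, which retains SCAP in the endoplasmic reticulum (chromosome 7, 155297776-155310235, plus strand), had the largest difference of the 33 genes. It was at 319, 299 and 323 scaled CPM in the WT libraries, 121, 105 and 122 in KO and 149.6, 147 and 145 in addback. No groups overlapped, and KO held 36.9% and addback 46.9% of the WT mean. Its fold was -1.44 ± 0.06 (adjusted p = 9.237e-06) in KO against WT and -1.09 ± 0.06 (adjusted p = 1.643e-05) in addback against WT. In addback against KO it was 0.35 ± 0.06 (adjusted p = 0.002365), and 0.05 without a call under TMM factors over all genes. Background was 0.265 to 1.34% of its counts in WT. INSIG2, its paralog, is not induced by SREBP and is controlled otherwise. It was at 31.6, 30.4 and 35.0 in WT, 27.2, 25.9 and 27.1 in KO and 26.2, 27.3 and 28.2 in addback libraries. Its KO against WT fold was -0.27 ± 0.07 (adjusted p = 0.0093), and 0.07 under TMM factors over all genes, so its direction hangs on the scaling. Background was 1.94 to 8.93% of the INSIG2 counts in WT.

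SREBF2 was at 317, 309 and 303 scaled CPM in WT, 235, 217 and 233 in KO and 234, 241 and 236 in addback libraries, with KO and addback overlapping below WT. It gave -0.44 ± 0.04 (adjusted p = 0.0001558) in KO and -0.39 ± 0.04 (adjusted p = 0.0003088) in addback against WT. With TMM factors over all genes neither was called, at -0.11 and -0.36. SREBF1 was at 56.1, 67.4 and 55.7 in WT, 46.0, 39.3 and 47.1 in KO and 54.1, 55.8 and 46.9 in addback libraries. Background made up 5.59 to 28.7% of the SREBF1 counts in WT libraries, the highest of the 33 genes, and its KO against WT fold of -0.44 ± 0.10 (adjusted p = 0.006014) was -0.27 with background subtracted and -0.05 with 2 times the estimate subtracted, neither called. SCAP was at 100.3, 102 and 93.2 in WT, 83.5, 85.2 and 84.1 in KO and 89.8, 95.6 and 86.6 in addback libraries. Its fold of -0.23 ± 0.05 (adjusted p = 0.003578) was -0.16 and not called with background, 3.28 to 18% of its WT counts, subtracted, and 0.11 under TMM factors over all genes. STARD4, which carries cholesterol between membranes in the cytosol, was at 110.4, 105 and 111 in WT, 66.4, 53.3 and 61.3 in KO and 87.0, 82.8 and 92.8 in addback libraries. Its groups did not overlap, with addback between the others. Its folds were -0.85 ± 0.08 (adjusted p = 0.0002154) in KO against WT, 0.54 ± 0.08 (adjusted p = 0.002008) in addback against KO and -0.31 ± 0.08 (adjusted p = 0.03445) in addback against WT. The last was not called without addback libraries 1 or 2 or any 1 of the WT libraries, at -0.28 to -0.34.

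Among the fatty acid genes SCD, the desaturase that makes oleic from stearic acid, moved most. It was at 954, 917 and 916 scaled CPM in WT, 548, 461 and 564 in KO and 623, 565 and 562 in addback libraries, with KO and addback overlapping below WT. Its fold was -0.82 ± 0.07 (adjusted p = 0.000206) in KO and -0.67 ± 0.07 (adjusted p = 0.0007069) in addback against WT. FASN, the fatty acid synthase, was at 1510, 1469 and 1353 in WT, 1185, 1090 and 1181 in KO and 1175, 1051 and 1016 in addback libraries. Its KO against WT fold of -0.33 ± 0.06 (adjusted p = 0.002872) was 0.00 under TMM factors over all genes, and addback against WT gave -0.42 ± 0.06 (adjusted p = 0.003911), and -0.38 without a call under the same factors. The genes before it behaved otherwise. ACLY, which makes cytosolic acetyl-CoA from citrate, was at 870.2, 844 and 807 in WT, 798, 800.1 and 793 in KO and 705, 658 and 644 in addback libraries. KO libraries lay just below WT without a call (-0.08 ± 0.04, adjusted p = 0.1363), and addback was below KO (-0.25 ± 0.04, adjusted p = 0.002323) and WT (-0.33 ± 0.04, adjusted p = 0.001417). ACACA, which carboxylates acetyl-CoA to malonyl-CoA, was at 272, 279.7 and 305 in WT, 272, 266 and 281 in KO and 248, 230.3 and 245 in addback libraries. It also had its lowest level in addback, with -0.18 ± 0.05 (adjusted p = 0.01374) against KO and -0.24 ± 0.05 (adjusted p = 0.0158) against WT, and KO against WT was not called (-0.06 ± 0.05, adjusted p = 0.2816). With TMM factors over all genes ACACA was called higher in KO, at 0.28 (adjusted p = 0.04741). ACACA lost the addback against KO call without KO library 3 or addback library 2, and the addback against WT call without addback library 2. Background was 2.34 to 10.6% of the ACACA counts in WT.

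FADS1 and FADS2, neighbouring desaturases of polyunsaturated fatty acid synthesis on chromosome 11, and the elongase ELOVL6 were lower in KO and called higher again in addback. FADS1 was at 147, 132 and 136 scaled CPM in WT, 113, 95.3 and 116 in KO and 155, 146 and 153 in addback libraries. Addback overlapped WT, with folds of -0.36 ± 0.07 (adjusted p = 0.003206) in KO against WT and 0.49 ± 0.07 (adjusted p = 0.002082) in addback against KO. With TMM factors over all genes the KO against WT folds of FADS1, FADS2 and ELOVL6 were -0.03, -0.17 and -0.12, none called. FADS2 was at 238, 220.4 and 209 in WT, 168, 136 and 167 in KO and 190.4, 183 and 179 in addback libraries. Its fold of 0.23 ± 0.08 (adjusted p = 0.03839) in addback against KO was not called without KO library 2 or any 1 of the addback libraries, and it was -0.07 under TMM factors over all genes. Against WT addback FADS2 gave -0.27 (adjusted p = 0.08023), called with the replicate block (adjusted p = 0.02269). The table's exon models of FADS1 and FADS2 overlap by 142 bases on opposite strands. ELOVL6 was at 54.8, 57.0 and 57.2 in WT, 41.8, 38.7 and 42.5 in KO and 47.7, 47.6 and 50.1 in addback libraries, with no overlap. Its folds were -0.46 ± 0.05 (adjusted p = 0.0004343) in KO against WT, 0.24 ± 0.05 (adjusted p = 0.003887) in addback against KO and -0.22 ± 0.05 (adjusted p = 0.02484) in addback against WT. The last was not called without addback libraries 1 or 2 or any 1 of the WT libraries, at -0.20 to -0.22.

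FABP5, a cytosolic carrier of fatty acids, was the only one of the 33 genes called higher than WT in both KO and addback. It was at 32.5, 32.6 and 31.7 scaled CPM in WT, 50.01, 52.0 and 47.6 in KO and 51.3, 46.1 and 47.1 in addback libraries. KO and addback overlapped, and both lay above WT. Its folds were 0.63 ± 0.06 (adjusted p = 0.0002038) in KO against WT and 0.58 ± 0.06 (adjusted p = 0.0003444) in addback against WT, while addback against KO was not called (-0.05 ± 0.06, adjusted p = 0.4682). FABP5 has 14 pseudogenes named after it in GENCODE v29, so some of its reads may belong to, or have been lost to, near-identical copies.

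Levels of different genes were compared per length, as scaled CPM per kilobase of exon. The length is that of the whole exon model of a gene, which may be longer than the RNA made. It was 22759 bases for ACACA with 7436 coding, 7157 for SC5D with 918 coding and 8458 for FASN with 7552 coding. The order of genes therefore depends on these models. In WT the highest was ACLY at 192 ± 7.28 (SD, n = 3), followed by FASN at 171 ± 9.63 and SCD at 169.8 ± 4.01, which did not differ beyond their spread. FDPS came next at 145 ± 5.5, then HMGCS1 at 119 ± 3.29 and ACAT2 at 116 ± 3.33, again within their spread, and INSIG1 at 102 ± 4.22. The lowest were SREBF1 at 11.9 ± 1.32, ACACA at 12.5 ± 0.768, INSIG2 at 12.5 ± 0.925 and SC5D at 12.8 ± 0.459, which overlapped. In KO ACLY was at 182 ± 0.799, FASN at 136 ± 6.31, FDPS at 104 ± 3.21 and SCD at 95.9 ± 10.1, and INSIG1 had dropped to 37.6 ± 3.09, below EBP at 65.6 ± 1.78 and FABP5 at 68.2 ± 3.05. SREBF2 RNA stood well above SREBF1 RNA per length in every group, at 53.5 ± 1.27 in WT, 39.5 ± 1.7 in KO and 41.0 ± 0.649 in addback. SREBF1 was at 8.83 ± 0.839 in KO and 10.5 ± 0.943 in addback, with the background given above still in its WT and addback levels.

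**Figure D4:**
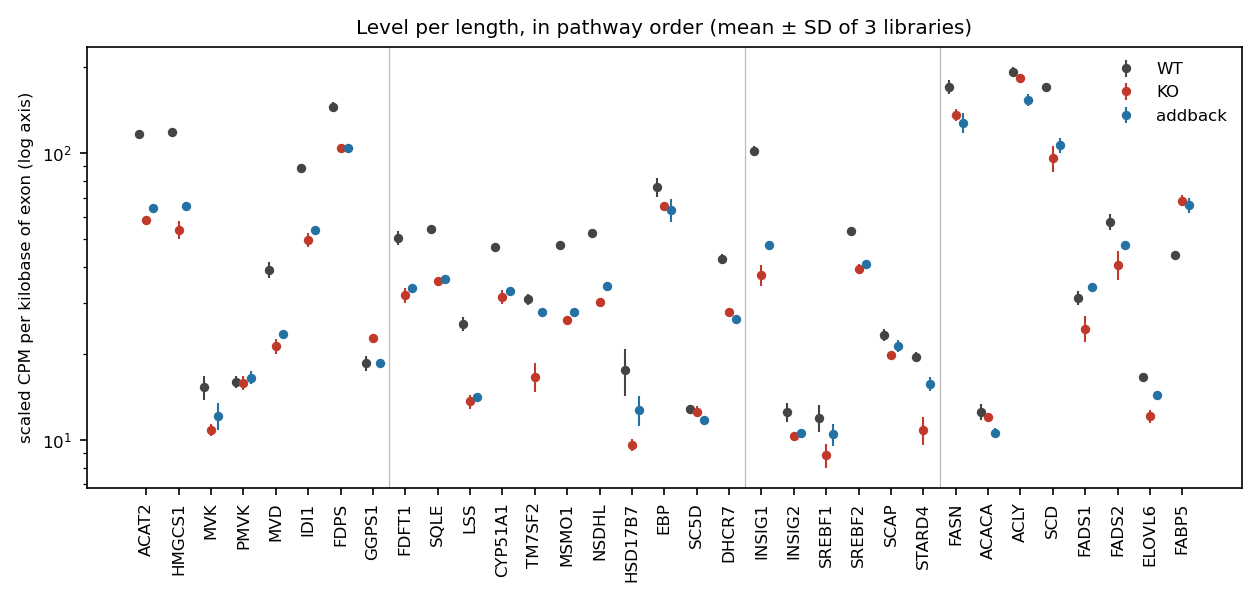
Scaled CPM per kilobase of exon (y axis, log axis) of the 33 genes in pathway order (x axis), as the mean ± SD of 3 libraries per group. ACLY, FASN and SCD were highest in WT at 192, 171 and 169.8, and SREBF1 lowest at 11.9.

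Ratios of 2 genes within a library do not depend on library scaling, and 8 ratios were compared between groups by exact two-sided permutation tests, 24 in all, whose smallest p with 3 against 3 libraries is 0.1. The counts include background, which is largest for SREBF1 and SCAP. INSIG1 counts were 10.1, 9.85 and 9.25 times the INSIG2 counts in the WT libraries, 4.44, 4.05 and 4.50 times in KO and 5.70, 5.39 and 5.15 times in addback. The groups did not overlap, and each of the 3 comparisons gave an exact permutation p of 0.1, adjusted 0.12. The ratio of INSIG1 to SCAP was 3.19 ± 0.275 (SD, n = 3) in WT, 1.37 ± 0.125 in KO and 1.63 ± 0.0758 in addback. HMGCS1 counts were 0.771 ± 0.0370 times those of ACLY in WT, 0.369 ± 0.0269 in KO and 0.531 ± 0.0208 in addback libraries. FDPS counts were 4.36 ± 0.242 times those of GGPS1 in WT, 2.54 ± 0.113 in KO and 3.11 ± 0.0343 in addback. For SCD and FASN the ratio was 0.644 ± 0.0285, 0.454 ± 0.0282 and 0.540 ± 0.0115 in the same order. In these 5 ratios KO was lowest and addback lay between KO and WT without overlap (exact permutation p = 0.1 and adjusted 0.12 for each of the comparisons). A ratio also rises when the gene it is divided by falls. In the edgeR fit of addback against KO, FDPS gave 0.00 and GGPS1 -0.29, HMGCS1 0.27 and ACLY -0.25, and SCD 0.15 and FASN -0.09. INSIG1 gave 0.35, INSIG2 0.03 and SCAP 0.11. Called among these were GGPS1, HMGCS1, ACLY and INSIG1. The FADS2 to FADS1 ratio was instead lowest in addback, at 1.22 ± 0.0433, against 1.45 ± 0.0347 in KO and 1.60 ± 0.0681 in WT. The SQLE to LSS ratio was higher in KO and addback, at 0.893 ± 0.0216 and 0.882 ± 0.0365, than in WT, at 0.734 ± 0.0470 (exact permutation p = 0.1 each, adjusted 0.12), and KO and addback overlapped (p = 0.6, adjusted 0.626). The SREBF2 to SREBF1 ratio overlapped among all groups, at 5.23 ± 0.563 in WT, 5.19 ± 0.296 in KO and 4.56 ± 0.407 in addback (exact permutation p = 1 for KO against WT and 0.2 for the others, adjusted 0.218).

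**Figure D5:**
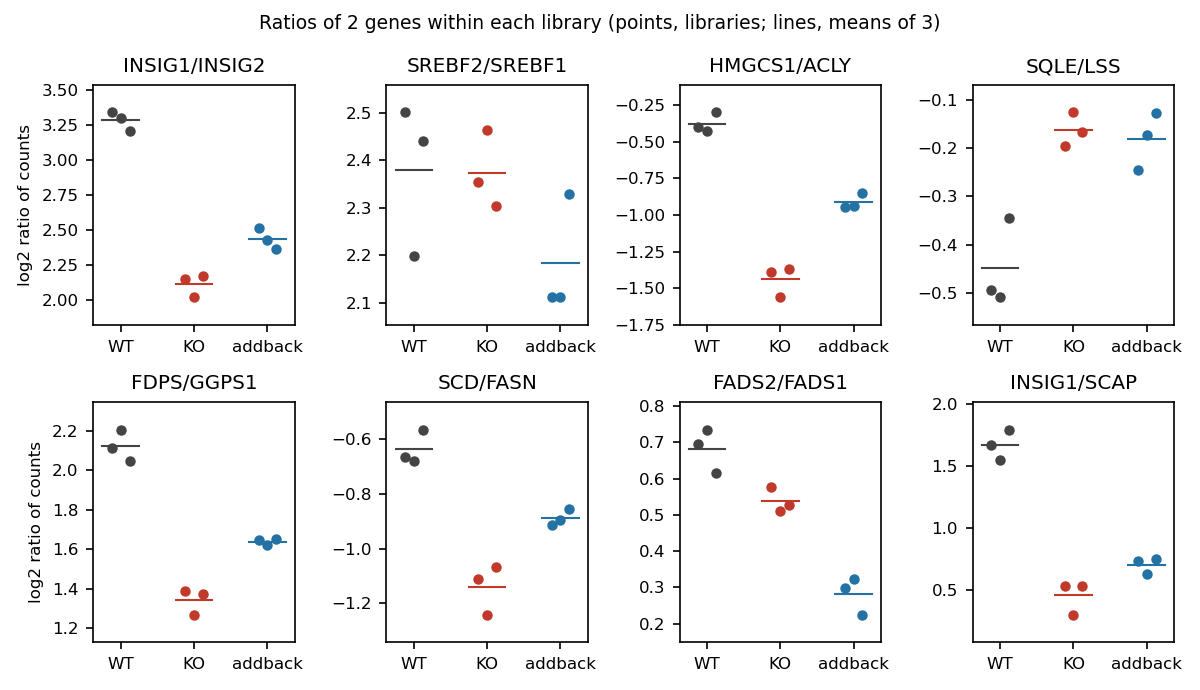
Log2 ratio of the counts of 2 genes within each library (y axis) for 8 ratios, by group (x axis); points are libraries and lines the means of 3. In INSIG1/INSIG2 the WT libraries stand highest and the KO libraries lowest, while SREBF2/SREBF1 overlaps among the groups.

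Other genes of the pathway were counted from lists, and named by the size of their fold. Of 14 reported SREBP targets outside the 33 genes, 9 fell and 0 rose in KO against WT by edgeR, with a median of -0.32, against 52.6% lower and 9.43% higher among all tested genes and 26.3% and 23.3% among low-background genes. These shares also apply to the lists that follow, but only to counts from the fit used here. At an unadjusted p under 0.05 the count of risers was also 0, and by DESeq2 with the same scaling it was 1. The largest folds were those of ACSS2, which makes acetyl-CoA from acetate (-0.88 ± 0.10, adjusted p = 0.0006908, with background at 10.9% of its mean), PCYT2 of phosphatidylethanolamine synthesis (-0.59 ± 0.08, adjusted p = 0.0009977), the elongase ELOVL5 (-0.49 ± 0.03, adjusted p = 3.845e-05) and the mitochondrial citrate carrier SLC25A1 (-0.42 ± 0.07, adjusted p = 0.001687). In addback against KO 7 of the 14 were higher and 1 lower, and in addback against WT 6 were lower and 0 higher by edgeR, with 2 higher at an unadjusted p under 0.05 and 2 by DESeq2. Among all tested genes 49.2% were higher and 7.64% lower in addback against KO, and 4.89% lower and 4.36% higher in addback against WT. The first 2 counts turned with TMM factors over all genes, which gave 1 lower and 2 higher in KO against WT and 6 lower and 1 higher in addback against KO. With TMM factors over all genes ACSS2 kept its call in KO against WT, at -0.53, while PCYT2, ELOVL5 and SLC25A1, at -0.25, -0.15 and -0.10, were not called. SLC25A1 was not called with DESeq2 size factors either.

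Of 17 genes of SREBP processing, turnover and its cofactors, 4 were lower and 1 higher in KO against WT, and 1 lower and 10 higher with TMM factors over all genes. VCP, the ATPase that pulls proteins out of the endoplasmic reticulum membrane, gave -0.49 ± 0.04 (adjusted p = 0.0001165), and -0.16 without a call with TMM factors over all genes. The NF-Y subunit NFYA gave -0.30 ± 0.04 (adjusted p = 0.001051) and the site-2 protease MBTPS2 -0.26 ± 0.04 (adjusted p = 0.001845), and both were above 0 with TMM factors over all genes, at 0.03 and 0.09. NFYB, another NF-Y subunit, was higher at 0.24 ± 0.06 (adjusted p = 0.009174). CH25H, an oxysterol-forming enzyme, was lower with 56.8% of its mean level estimated as background.

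Of 22 other isoprenoid and sterol enzymes 6 were lower and 4 higher in KO against WT. Among its larger folds were those of SOAT2, COQ2 and PDSS1, with background at 52.2, 16.3 and 10.5% of their means. Of the 14 with low background 2 were lower and 4 higher, and 0 and 7 with TMM factors over all genes. PDSS2 of coenzyme Q synthesis was at -0.33 ± 0.10 (adjusted p = 0.02031), and the protein prenyltransferase subunits RABGGTB and FNTA at 0.24 ± 0.06 (adjusted p = 0.00916) and 0.23 ± 0.06 (adjusted p = 0.01275). PDSS2 was at 0.01 with TMM factors over all genes.

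Of 25 other fatty acid and glycerolipid enzymes 12 were lower and 2 higher in KO against WT, led by ELOVL3, ACSL5, DGAT2 and ACACB, with background at 68.9, 55.6, 38.8 and 29.9% of their means. Of the 15 with low background 6 were lower and 2 higher, and 0 and 4 with TMM factors over all genes. AGPAT2 of phosphatidic acid synthesis gave -0.51 ± 0.07 (adjusted p = 0.001278) and the acyl-CoA synthetase ACSL1 -0.34 ± 0.08 (adjusted p = 0.005456). Neither was called with TMM factors over all genes, at -0.18 and 0.00, or with DESeq2 size factors. LPCAT3, which remodels phosphatidylcholine, gave -0.29 ± 0.07 (adjusted p = 0.009975) and the synthetase ACSL4 -0.28 ± 0.05 (adjusted p = 0.002081), and both turned with TMM factors over all genes. Of 14 genes of fatty acid oxidation 5 were lower and 4 higher, and of the 11 with low background 3 and 4, with a median of -0.01, against -0.34 for the 8 fatty acid synthesis genes. HADHA of the trifunctional protein gave 0.29 ± 0.03 (adjusted p = 0.0005774) and the enoyl-CoA hydratase ECHS1 0.27 ± 0.07 (adjusted p = 0.008208). CPT2 and ACADVL, at -0.26 and -0.22, turned to 0.08 and 0.10 with TMM factors over all genes, and CPT1A and ACADS, at -0.62 and -0.53, had background at 10.6 and 13.8% of their means.

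The authors' deposited gene tables, made with their own scaling, list 20 of the 33 genes lower and 4 higher in KO against WT at an adjusted p under 0.05, with a median log2 fold of -0.22. For addback against KO the authors' deposited table lists 13 lower and 2 higher, with a median of -0.16. Shares over all genes of the authors' deposited tables were not counted. With DESeq2 size factors in the fits made here, low-background genes had medians of 0.24 in KO against WT and -0.26 in addback against KO. All tested genes had medians of -0.21 and 0.18 in the same order. In the authors' deposited tables of transcription past gene ends, with 2541 regions for KO against WT and 2396 for addback against KO, 3 of the 33 genes had a region. The ELOVL6 region (chromosome 4, 110043474-110049073, minus strand, hg38) has a log2 fold of -0.42 (authors' adjusted p = 6.405e-05) in KO against WT in the authors' deposited table and -0.14 (authors' adjusted p = 0.283) in addback against KO. The regions of GGPS1 (chromosome 1, 235344530-235367361, plus strand) and INSIG2 (chromosome 2, 118110022-118124421, plus strand) have folds of 0.00 and -0.02 in KO against WT in the authors' deposited table, neither past 0.05. All 3 regions include the annotated end of their gene. ELOVL6 ends at base 110045846 on the minus strand, so more of its region lies within the gene than past it. Its region fold is therefore not one of transcription past the gene end alone.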

How the data were processed

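Poly(A) RNA of 9 HEK293 libraries was used, 3 each of WT, KO and addback. The authors deposited a table of read counts (unit: count), with 26485 genes as rows and libraries as columns, and a column of exon length in bases (unit: other); its columns named KO.U were taken as addback because the authors' deposited comparison tables name that group as KO with UBE3D. Per the submitters' processing notes cutadapt 1.8.1, STAR 2.5.2b and DESeq2 were used on hg38, with no step given for each. For the counting program, annotation and strand setting, details were not given in the sources used here. Result tables that the authors deposited give log2 fold changes and their errors (unit: log2), p-values, base means (unit: signal) and a test statistic (unit: score), and were only quoted. Their region folds may not be on one scale between comparisons. The number of unused sample columns was 0.

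Symbols were matched to GENCODE v29 (23861 directly, 24 through another symbol), which gave coordinates on hg38 and coding lengths for 18602 genes. Background per library was estimated from 575 genes of tissue-restricted families (odorant and taste receptors, keratin-associated proteins, defensins and the like) as their median count per coding kilobase, multiplied by the coding length of a gene. In the 7526 low-background genes this came to no more than 10% of the mean CPM, and at least 10% of exon bases were coding. Their TMM factors scaled the libraries. The test was edgeR's robust quasi-likelihood fit (version 4.0.16, R 4.3.3, genes kept by filterByExpr, genotype as the term, all 9 libraries, 21994 genes), with Benjamini-Hochberg adjustment over all tested genes and a threshold of 0.05. Every adjusted p in the report is from this fit unless another setting, the permutation tests or the authors' table is named. Standard errors were derived from the fold and its F statistic. Steps were tested on simulated data, drawn from the KO means at a fixed dispersion and without background. The handling of background was therefore not tested by them. Replicates were compared for copies, and none was found (chi-square per degree of freedom 1.99 to 44.7).

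Alternatives were other scalings (TMM and upper quartile over all genes, DESeq2 1.42.0 with the same or its own size factors), no filter, low-background genes alone, background subtracted once or 2 times, a replicate block, the groups compared alone, each library left out, and the lowest-background libraries. Named were all 33 genes, UBE3D, and of each other list at most 4 called genes with the largest fold, also among low-background genes, of which a few are not reported here. The 33 genes and the lists were chosen with earlier results of these data known. Promoters are from RefSeq, build GRCh38.p14. Pseudogene counts are by symbol in GENCODE v29.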

Additional observations from a re-analysis of the deposited data

How the results depend on the processing

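The counts of genes called depended mainly on the library scaling. TMM factors over all genes gave 14 of the 33 genes lower and 5 higher in KO against WT, 8 lower and 1 higher in addback against KO, and 12 lower in addback against WT. They moved the median of the low-background genes from -0.02 to 0.32, from 0.00 to -0.30 and from -0.01 to 0.02 in the same order. Upper quartile factors gave 23 lower in KO against WT and 5 lower and 4 higher in addback against KO. DESeq2 with its own size factors gave 20 lower and 4 higher in KO against WT and 13 lower and 2 higher in addback against KO, while DESeq2 with the scaling used here gave 27 lower and 2 higher in KO against WT. Shares of all genes called under these other settings were not counted. The cause was not tested beyond these medians.

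Log2 folds turned sign as follows. With TMM factors over all genes, in KO against WT PMVK 0.33, EBP 0.11, SC5D 0.30, INSIG2 0.067, SCAP 0.11, FASN 0.0044, ACACA 0.28 and ACLY 0.26; in addback against KO ACAT2 -0.15, HMGCS1 -0.030, MVK -0.15, PMVK -0.25, MVD -0.16, IDI1 -0.19, FDPS -0.30, FDFT1 -0.22, SQLE -0.27, LSS -0.25, CYP51A1 -0.24, MSMO1 -0.22, NSDHL -0.11, INSIG2 -0.28, SREBF1 -0.056, SREBF2 -0.25, SCAP -0.20, SCD -0.14, FADS2 -0.069 and ELOVL6 -0.063. With upper quartile factors, in KO against WT PMVK 0.12, SC5D 0.094, ACACA 0.063 and ACLY 0.046; in addback against KO PMVK -0.069, IDI1 -0.018, FDPS -0.12, FDFT1 -0.041, SQLE -0.096, LSS -0.076, CYP51A1 -0.063, MSMO1 -0.042, INSIG2 -0.10, SREBF2 -0.073 and SCAP -0.022. With DESeq2 size factors, in KO against WT PMVK 0.25, EBP 0.032, SC5D 0.22, SCAP 0.025, ACACA 0.19 and ACLY 0.18; in addback against KO ACAT2 -0.12, MVK -0.11, PMVK -0.21, MVD -0.12, IDI1 -0.15, FDPS -0.26, FDFT1 -0.18, SQLE -0.23, LSS -0.21, CYP51A1 -0.20, MSMO1 -0.18, NSDHL -0.075, INSIG2 -0.24, SREBF1 -0.017, SREBF2 -0.21, SCAP -0.16, SCD -0.10, FADS2 -0.030 and ELOVL6 -0.025; in addback against WT GGPS1 -0.0051. With background subtracted, in KO against WT PMVK 0.016 and in addback against KO EBP 0.0047 and FABP5 0.013. With 2 times the background subtracted, in KO against WT PMVK 0.035 and in addback against KO MVK -0.13, EBP 0.064, SC5D 0.0082, SREBF1 -0.23, SCAP -0.064, FASN 0.044 and FABP5 0.076. With the lowest-background libraries, where the lone WT and addback library was assumed to vary like the others, in KO against WT PMVK 0.060 and ACACA 0.0068, in addback against KO MVK -0.021, PMVK -0.026, EBP 0.046, INSIG2 -0.024, FASN 0.032 and FABP5 0.047 and in addback against WT GGPS1 -0.023.

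Leaving out each library in turn gave 26 to 27 genes lower and 2 higher in KO against WT, 8 to 10 higher and 2 to 4 lower in addback against KO, and 17 to 20 lower and 1 higher in addback against WT. Folds that turned then ranged as EBP -0.10 to 0.019 in addback against KO, FDPS -0.022 to 0.020 in addback against KO, GGPS1 -0.040 to 0.059 in addback against WT, PMVK -0.039 to 0.035 in KO against WT and SC5D -0.057 to 0.015 in KO against WT.

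The reported fit did not use the replicate numbers. Between WT and addback the same-number correlations were 0.89, 0.60 and 0.74 over all genes, which carry the background. Over low-background genes they were 0.57, 0.29 and 0.63. In the comparisons with KO they were -0.05 to 0.02 over all genes and 0.01 to 0.19 over low-background genes. With the replicate block 27 genes were lower and 2 higher in KO against WT, 14 higher and 3 lower in addback against KO, and 24 lower and 1 higher in addback against WT. The block added the calls of MVK, HSD17B7, EBP and FADS2 in addback against WT and of MVD, IDI1, SCAP and SCD in addback against KO, and changed no other call. With no filter, with scaling on genes low against the lowest group, and with the groups compared alone, each count stayed within 1.5 times the one reported. Background subtracted gave 26 lower in KO against WT, 12 higher in addback against KO and 24 lower in addback against WT, and 2 times the background subtracted 25, 15 and 20. Low-background genes alone gave 26, 10 and 25 in the same order. The background, present in WT and addback libraries and near 0 in KO, limits what can be said of SREBF1, MVK, SCAP, HSD17B7 and UBE3D, and 3 libraries a group of unknown independence limit the rest.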

Other observations

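The gene whose pattern over the 9 libraries was most like that of INSIG1 was HMGCS1, by Pearson's r of log2 scaled CPM among 7522 low-background genes with counts in every library (r = 0.999). FAM84A (0.997), FNBP1 (0.997), NSDHL (0.996) and TMEM47 (0.993) followed. IDI1 ranked 11, ACAT2 13, SCD 22, MVD 26 and SREBF2 27, while ACLY ranked 2498 and PMVK 3920, and FABP5 stood near the other end with r = -0.974. These values describe 9 libraries in 3 groups, so that a gene low in both KO and addback ranks high, and they carry no test. FAM84A was at mean levels of 53.0 scaled CPM in WT, 5.12 in KO and 9.10 in addback, and TMEM47 at 32.8, 0.400 and 1.43, so both had larger folds than INSIG1, of -3.37 and -6.33 in KO against WT.

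Of the 10 HEK293-like marker genes 3 were lower and 5 higher in KO against WT. In addback against WT 2 were lower and 5 higher. For KO against WT 26.3% of low-background genes were lower and 23.3% higher, and of all tested genes 52.6% and 9.43%. For addback against WT these shares were 12.5% and 10.2%, and 4.89% and 4.36%. Not all of the markers called are named here. IRS4, an insulin receptor substrate typical of HEK293 cells, gave -1.98 ± 0.14 (adjusted p = 9.411e-05) in KO and -1.33 ± 0.14 (adjusted p = 0.0005579) in addback against WT. VIM, which encodes vimentin, gave 1.05 ± 0.07 (adjusted p = 7.566e-05) and 0.55 ± 0.07 (adjusted p = 0.001746), the keratin KRT8 0.71 ± 0.07 (adjusted p = 0.0003006) and 0.40 ± 0.07 (adjusted p = 0.007163), and the neuronal intermediate filament gene INA 0.84 ± 0.05 (adjusted p = 4.455e-05) and 0.88 ± 0.05 (adjusted p = 2.798e-05). Their part in the levels of the sterol and fatty acid genes was not tested.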
